A study of Mus musculus with 4 samples.

Results

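The proteasome genes of differentiating 3T3-L1 cells were taken as all genes whose symbol begins with Psm, then a letter from a to g and a number, with values summed per symbol. The rule found 49 genes among the 13108 measured. Of these, 46 encode subunits, activators, the inhibitor or assembly chaperones of the proteasome, and 3 carry such a symbol without being parts of it. The 46 comprise 31 constitutive subunits (14 of the 20S core and 17 of the 19S regulatory particle), the 3 immunoproteasome catalytic subunits Psmb8, Psmb9 and Psmb10, 4 activators, 1 inhibitor, 3 chaperones of the 19S base and 4 chaperones of the core. Psma8 and Psmb11, the tissue-specific core subunits of testis and thymus, were not analysed here.

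RNA-seq was carried out on stable lines of 3T3-L1, a mouse preadipocyte line, to define what CACUL1, a corepressor of the adipogenic receptor PPARγ, does in adipogenesis. There were 4 lines with 1 sample each. FLAG carried the empty tag vector and FLAG-CACUL1 the tagged CACUL1, both selected with G418, while sh-Luc carried a control hairpin against luciferase and sh-CACUL1 a hairpin against CACUL1, both selected with Hygromycin B. All 4 were induced at confluency with rosiglitazone (5 µM), IBMX (0.5 mM), dexamethasone (1 µg/mL) and insulin (5 µg/mL), kept on insulin, and harvested after 8 days of differentiation. The lines came from drug-resistant colonies, and the sources used here do not say whether colonies were pooled or a line is 1 clone. Vector, selection drug and line cannot be told apart, and with 1 sample per line no difference has a replicate check and none was tested. Values are FPKM (fragment counts corrected for transcript length and library size), differences are log2 ratios of FPKM + 1, and a gene is said to rise or fall where that ratio reached 2-fold. In bulk RNA, fewer cells expressing a gene and less RNA per cell cannot be told apart.

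The proteasome degrades proteins tagged with ubiquitin. Its barrel-shaped 20S core is built from outer rings of alpha subunits and inner rings of beta subunits, and 3 of the beta subunits, Psmb6, Psmb5 and Psmb7, carry the catalytic sites. The 19S particle caps the core: its Psmc ATPases unfold substrates and its Psmd subunits bind ubiquitin, remove it and hold the lid together. In cells exposed to interferon gamma, and constitutively in many immune cells, Psmb9, Psmb8 and Psmb10 replace those catalytic subunits in newly built cores, and the resulting immunoproteasome favours peptides suited to MHC class I molecules.

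The size of the 4 libraries was estimated from the steps between low FPKM values, at about 14500000 fragments in FLAG and 14300000 in FLAG-CACUL1, against 24000000 in sh-Luc and 15000000 in the sh-CACUL1 line. Cacul1 stood at 9.61 FPKM in FLAG and 11.8 in FLAG-CACUL1, against 10.2 in sh-Luc and 5.39 in the sh-CACUL1 line. It was lower in the knockdown line than in its control, short of 2-fold (log2 fold change -0.82), and little higher in the overexpressing line (0.27). After median-of-ratios scaling, which brings the median of all genes near 0, these values were -0.42 and 0.13. The study monitored the tagged protein and the knockdown by western blot. The sources used here do not give the species of the FLAG-CACUL1 insert, so the mouse gene may not measure it. All 7 adipocyte markers fell in FLAG-CACUL1 against FLAG and all 7 rose in sh-CACUL1 against sh-Luc. Their summed FPKM was 7331 in FLAG and 878 in FLAG-CACUL1, against 1669 in sh-Luc and 16357 in the sh-CACUL1 line, so the control lines also differed in it.

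Psmb8 and Psmb9 were the members that differed most between lines with different vectors. Both were above 20 FPKM in FLAG and near or below 3 FPKM in the lines with hairpins, whereas Psmb10 stayed between 20.2 and 29.5 FPKM in all 4. Psmb8 (NM_010724), the chymotrypsin-like subunit of the immunoproteasome, stood at 37.8 FPKM in FLAG and 21.1 in FLAG-CACUL1, against 0.341 in sh-Luc and 0.302 in the sh-CACUL1 line. Both FLAG-vector lines were high and both sh lines were close to the floor, with no overlap and a 125-fold span from the lowest line to the highest. The sh-line values rest on about 13 and 7.4 fragments, against about 890 and 490 in the FLAG-vector lines. Psmb9 (NM_013585), the counterpart of the caspase-like Psmb6, stood at 28.6 FPKM in FLAG and 7.72 in FLAG-CACUL1, against 2.87 in sh-Luc and 0.998 in the sh-CACUL1 line. The order of the lines was that of Psmb8, with a wider gap inside each vector pair. Psmb10 (NM_013640), the trypsin-like counterpart of Psmb7, stood at 22.5 FPKM in FLAG and 27.1 in FLAG-CACUL1, against 20.2 in sh-Luc and 29.5 in the sh-CACUL1 line. Its highest line was sh-CACUL1 and its lowest sh-Luc, so its levels did not separate the vectors.

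**Figure D1:**
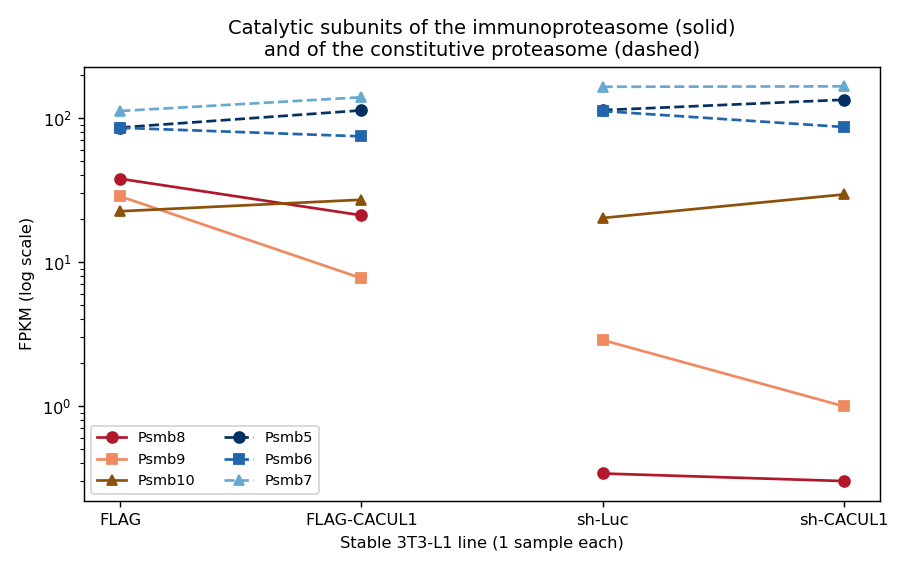
FPKM on a log axis of the immunoproteasome subunits (solid) and the constitutive catalytic subunits they replace (dashed) in the 4 lines, with lines joining samples that carry the same kind of vector. Psmb8 lies at 37.8 and 21.1 FPKM in the FLAG-vector lines and at 0.341 and 0.302 in the sh lines, while Psmb10 stays between 20.2 and 29.5 FPKM and Psmb5, Psmb6 and Psmb7 between 74.6 and 166.

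Against FLAG, FLAG-CACUL1 had less Psmb9, which fell (log2 fold change -1.76), and a Psmb8 value short of 2-fold (-0.81). Psmb10 differed by 0.25 the other way. Over all genes, 7.51% rose and 7.22% fell at least 2-fold in this comparison. Against sh-Luc, sh-CACUL1 gave -0.04 for Psmb8, -0.96 for Psmb9 and 0.52 for Psmb10, all short of 2-fold, beside 4.96% of all genes that rose and 16.4% that fell. Over the pseudocounts and scalings tried, the Psmb9 value here ranged from -1.53 without the pseudocount, past 2-fold, to -0.66 after quantile normalization. Psmb8 and Psmb9 differed more between the control lines than with CACUL1: FLAG exceeded sh-Luc by 4.86 for Psmb8 and 2.93 for Psmb9, and by 0.15 for Psmb10. In that comparison 8.59% of all genes were at least 2-fold higher in FLAG and 12.4% lower.

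Psmb8 and Psmb9 were also the members for which both FLAG-vector lines exceeded both sh lines at least 2-fold, 2 of 46, against 1.85% of all genes (242 genes). The lower FLAG-vector line exceeded the higher sh line 16.5-fold for Psmb8 and 2.25-fold for Psmb9, on the FPKM + 1 scale. No member was at least 2-fold lower in both FLAG-vector lines. Without a fold requirement, 5 of 46 were higher in both FLAG-vector lines (Psmb8, Psmb9, Psmd8, Psmd10 and Psmg4), against 17.3% of all genes, and 16 of 46 were lower in both, against 18.8%. This grouping of the lines by vector was chosen after the values were seen. Some markers of cell state split by vector too, although none of the 7 adipocyte markers did. Of the 6 preadipocyte and fibroblast markers, 5 were measured, with a summed FPKM of 2600 in FLAG and 2762 in FLAG-CACUL1, against 1241 in sh-Luc and 243 in the sh-CACUL1 line. Col1a1, a fibroblast collagen, made up most of each sum, at 2412, 2424, 1095 and 156 FPKM, and met the same 2-fold pattern. Dlk1 (97.2, 39.4, 0.220 and 21.2 FPKM) and Thy1 (42.4, 144, 0.663 and 34.3 FPKM) were also above both sh lines in both FLAG-vector lines, whereas Pdgfra (13.0, 40.9, 84.9 and 24.2 FPKM) and Pdgfrb (34.8, 113, 60.1 and 7.33 FPKM) were not. The part of these markers in the Psmb8 and Psmb9 levels was not tested.

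The catalytic subunits that the immunoproteasome replaces varied little. Psmb5, the constitutive chymotrypsin-like subunit, stood at 85.9 FPKM in FLAG and 113 in FLAG-CACUL1, against 113 in sh-Luc and 134 in the sh-CACUL1 line. Psmb6 stood at 85.5, 74.6, 112 and 86.6 FPKM in the same order of lines. Psmb7 stood at 112, 139, 165 and 166 FPKM. None of the 3 rose or fell in either CACUL1 comparison, and FLAG was the lowest line for Psmb5 and Psmb7. Of the Psmb5 transcript, 74.0% of the 31-base stretches also occur in other annotated genes, so its level may hold reads of near copies, while none of those of Psmb8, Psmb9 or Psmb10 do.

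Set against its constitutive counterpart in the same library, a ratio that a linear scaling between libraries leaves unchanged, Psmb8 amounted to 44.0% of Psmb5 in FLAG and 18.7% in FLAG-CACUL1, against 0.300% in sh-Luc and 0.225% in the sh-CACUL1 line. Psmb9 amounted to 33.4% of Psmb6 in FLAG and 10.3% in FLAG-CACUL1, against 2.57% in sh-Luc and 1.15% in the sh-CACUL1 line. Psmb10 amounted to 20.1% of Psmb7 in FLAG and 19.4% in FLAG-CACUL1, against 12.3% in sh-Luc and 17.8% in the sh-CACUL1 line. Within each vector pair the line with the lower Psmb8 and Psmb9 share was the one with altered CACUL1, whether overexpressed or depleted. In the sh pair, however, the Psmb8 shares rest on about 13 fragments in sh-Luc and 7.4 in sh-CACUL1. Library sizes there differed as well (about 24000000 and 15000000), so the Psmb8 order in that pair is not resolved. The median log2 fold change of the immunoproteasome subunits lay below that of the constitutive catalytic subunits by -1.13 with FLAG-CACUL1 and by -0.05 with sh-CACUL1.

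**Figure D2:**
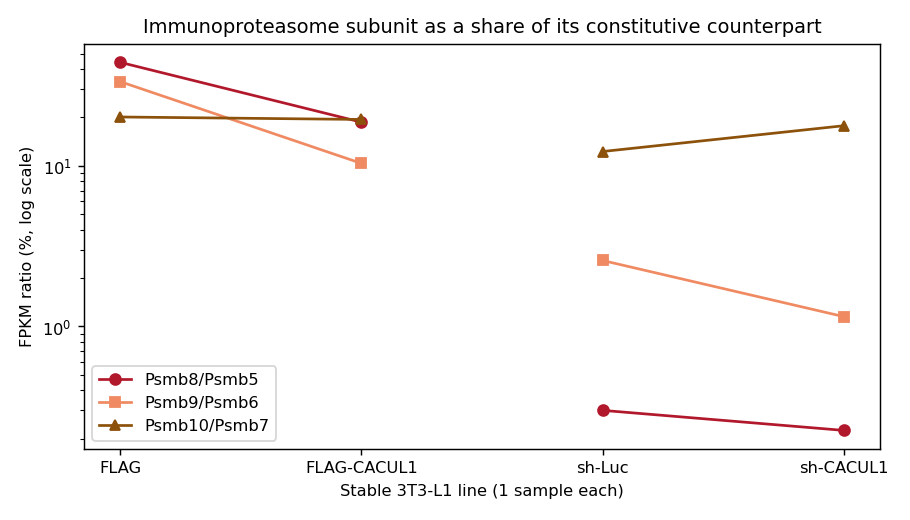
FPKM of each immunoproteasome subunit as a percentage of the constitutive subunit it replaces, on a log axis, in the 4 lines (1 sample each). The Psmb8 to Psmb5 share runs from 44.0% in FLAG down to 0.225% in sh-CACUL1, and the Psmb10 to Psmb7 share stays between 12.3% and 20.1%.

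In the mouse genome (GRCm38.p6) Psmb9 and Psmb8 lie in the MHC class II region of chromosome 17, interleaved with the peptide transporter genes Tap1 and Tap2, all 4 within 34.3 kb. Psmb9 occupies chr17:34182030-34187330 on the minus strand, Tap1 chr17:34187556-34197225, Psmb8 chr17:34198195-34201454 and Tap2 chr17:34204479-34216321, the last 3 on the plus strand. Psmb10 lies elsewhere, at chr8:105935728-105938392. Psmb9 and Tap1 start back to back, and the 225 bases between their start sites (chr17:34187331-34187555) serve as the upstream sequence of both. They are shown as RefSeq gives them, read in the sense of Psmb9, beside the 250 bases before Psmb8 (chr17:34197945-34198194, plus strand), because these are the stretches next to the members that separated the lines. Capitals mark a GC box (GGGCGG, either strand) in the former and a match to the gamma-activated site, an interferon gamma response motif written TTCNNNGAA, in the latter.
between Psmb9 and Tap1: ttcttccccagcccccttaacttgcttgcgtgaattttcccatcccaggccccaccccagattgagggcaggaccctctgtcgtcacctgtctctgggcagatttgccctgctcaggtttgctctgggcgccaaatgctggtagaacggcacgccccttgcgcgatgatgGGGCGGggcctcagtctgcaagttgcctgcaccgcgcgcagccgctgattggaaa
before Psmb8: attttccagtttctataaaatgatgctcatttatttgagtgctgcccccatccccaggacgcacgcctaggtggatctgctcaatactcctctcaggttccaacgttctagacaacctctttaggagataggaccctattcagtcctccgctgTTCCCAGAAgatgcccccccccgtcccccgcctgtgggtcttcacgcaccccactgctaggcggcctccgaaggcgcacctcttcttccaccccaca

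The Psmb8 match starts at position -97 from the start site. Over promoter windows running from 250 bases before to 50 after each start, TTCNNNGAA occurred on either strand in 8.30% of 32851 RefSeq promoters and in 3 of the 39 members with a promoter entry (Psmb8, Psmd2 and Psmg1). An interferon response element written as GAAANNGAAA occurred in 3.44% of promoters and in 5 members (Psmb3, Psmd4, Psmd9, Psme1 and Psmg4). The core of the antioxidant response element, TGACNNNGC, the motif of NRF1 and NRF2, occurred in 12.4% of promoters and in 6 members (Psmb5, Psmb6, Psmc6, Psmd9, Psmd12 and Psme4). The GC box, searched after the values were seen, occurred in 35.7% of promoters and in 23 members. A match describes the letters of these windows only.

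The transporter genes of the cluster were also split by vector, Tap1 past 2-fold and Tap2 short of it. Tap1, which with Tap2 moves peptides into the endoplasmic reticulum, stood at 63.9 FPKM in FLAG and 34.6 in FLAG-CACUL1, against 10.3 in sh-Luc and 3.85 in the sh-CACUL1 line. Tap2 stood at 60.4, 41.6, 15.1 and 24.0 FPKM in the same order. Both were higher in each FLAG-vector line than in each sh line, as were 17.3% of all genes. The lower FLAG-vector line exceeded the higher sh line 3.16-fold for Tap1 and 1.71-fold for Tap2, on the FPKM + 1 scale. Tap1, like Psmb9, was lowest in sh-CACUL1, while Tap2 was lowest in sh-Luc. Tap1 fell in sh-CACUL1 against sh-Luc (log2 fold change -1.21, or -0.83 after median-of-ratios scaling), and its difference between FLAG-CACUL1 and FLAG was -0.87.

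**Figure D3:**
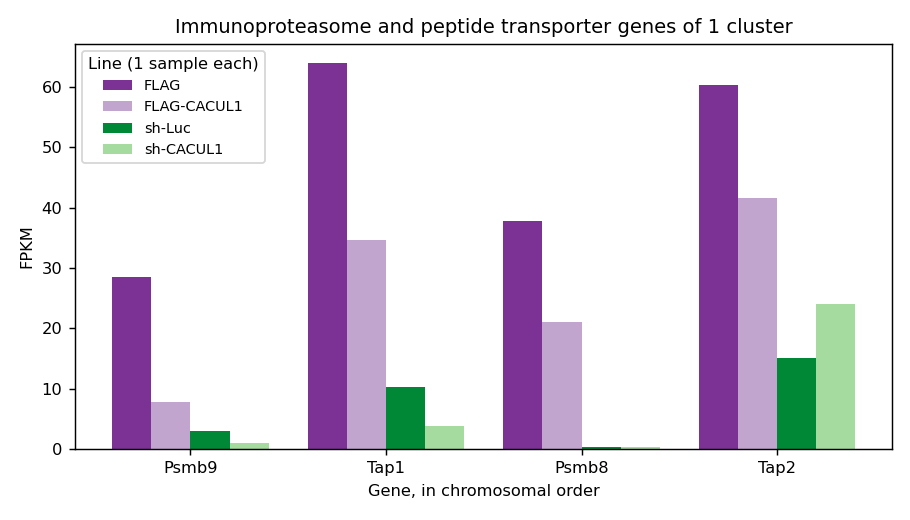
FPKM of the neighbouring genes Psmb9, Tap1, Psmb8 and Tap2 in the 4 lines (bars, 1 sample each, axis from 0). In each gene both FLAG-vector lines exceed both sh lines, and the Psmb8 bars of the sh lines, at 0.341 and 0.302 FPKM, are barely visible.

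Other genes of interferon signalling and peptide supply were set beside these members (16 listed, 15 measured). Between the controls, 6 of 15 were at least 2-fold higher in FLAG than in sh-Luc and none lower (9 and none after median-of-ratios scaling), beside 8.59% and 12.4% of all genes, with a median of 1.00 against -0.18 over all genes. Irf1, an interferon-induced activator of Psmb8 and Psmb9 transcription, stood at 53.5 FPKM in FLAG and 31.6 in FLAG-CACUL1, against 19.4 in sh-Luc and 28.2 in the sh-CACUL1 line. It too was highest in FLAG, and its log2 fold changes with CACUL1 were -0.74 and 0.52. In FLAG-CACUL1 against FLAG, 2 of 15 rose, with Stat2 at 1.70, and 1 fell, the receptor kinase Jak2 (-1.01), beside 7.51% and 7.22% of all genes, and after that scaling 1 rose and 2 fell. In sh-CACUL1 against sh-Luc, 6 of 15 fell (Stat2, B2m, Jak1, Ifngr2, Irf9 and Tap1) and none rose, beside 16.4% and 4.96% of all genes, and after that scaling 5 fell and 2 rose (Tap2 and Tapbp). Stat2, a transcription factor of type I interferon signalling, stood at 23.3, 77.7, 31.8 and 3.83 FPKM, and B2m, the light chain of MHC class I, at 3255, 6284, 1601 and 418 FPKM. Tapbp, which couples class I molecules to the transporter, stood at 192, 146, 95.6 and 175 FPKM and gave 0.86 in sh-CACUL1 (1.31 after median-of-ratios scaling).

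Leukocytes hold much immunoproteasome, so their markers were read beside these values. Of 6 markers, the defining Ptprc, Adgre1 and Itgam had no value in the tables used here. Each measured gene was nonzero in every line, so a gene without a value may still be expressed in some lines. The summed FPKM of Cd68, Csf1r and Cd74 was 23.0 in FLAG and 42.9 in FLAG-CACUL1, against 3.67 in sh-Luc and 1.56 in the sh-CACUL1 line. Cd68 stood at 16.2, 1.44, 0.962 and 1.18 FPKM, Cd74 at 6.19, 41.1, 2.59 and 0.362 FPKM, and Csf1r at 0.607, 0.397, 0.119 and 0.017 FPKM. Each of the 3 was higher in both FLAG-vector lines than in both sh lines, as were Psmb8, Psmb9 and 17.3% of all genes. Csf1r had the line order of Psmb8, but on only about 34, 22, 11 and 1 fragments. Cd68 was likewise highest in FLAG, while in FLAG-CACUL1 it exceeded the higher sh line only 1.12-fold on the FPKM + 1 scale. Cd74, which made up most of the sum in FLAG-CACUL1, was highest there. The part of these markers in the Psmb8 and Psmb9 levels was not tested either.

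Among the 31 constitutive subunits, the levels ran from 19.7 FPKM (Psmd6 in FLAG) to 209 FPKM (Psmb1 in sh-CACUL1). Their summed FPKM was 2213 in FLAG and 2692 in FLAG-CACUL1, against 3020 in sh-Luc and 2602 in the sh-CACUL1 line. In FLAG-CACUL1 against FLAG, 4 of 31 rose and none fell (2 and 1 after median-of-ratios scaling), beside 7.51% and 7.22% of all genes, and the log2 fold change had a median of 0.31 against 0.09 over all genes. In sh-CACUL1 against sh-Luc, 1 of 31 rose and none fell, with a median of -0.36 against -0.30 over all genes. That negative median moved with the whole transcriptome of the library: after median-of-ratios scaling, which brings the median of all genes near 0, it was 0.081, and that with FLAG-CACUL1 was 0.16. The same scaling changed the balance of all genes, of which 5.61% rose and 9.07% fell with FLAG-CACUL1 and 9.09% rose and 7.77% fell with sh-CACUL1. Counted with at least 1 FPKM in all 4 lines, as every constitutive subunit was, 15.2% of 9563 genes changed at least 2-fold with FLAG-CACUL1 and 23.1% with sh-CACUL1, either way. Against sh-Luc, FLAG had 6 of 31 constitutive subunits at least 2-fold lower and none higher (5 and 2 after that scaling), beside 12.4% and 8.59% of all genes, and a median of -0.51 against -0.18.

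**Figure D4:**
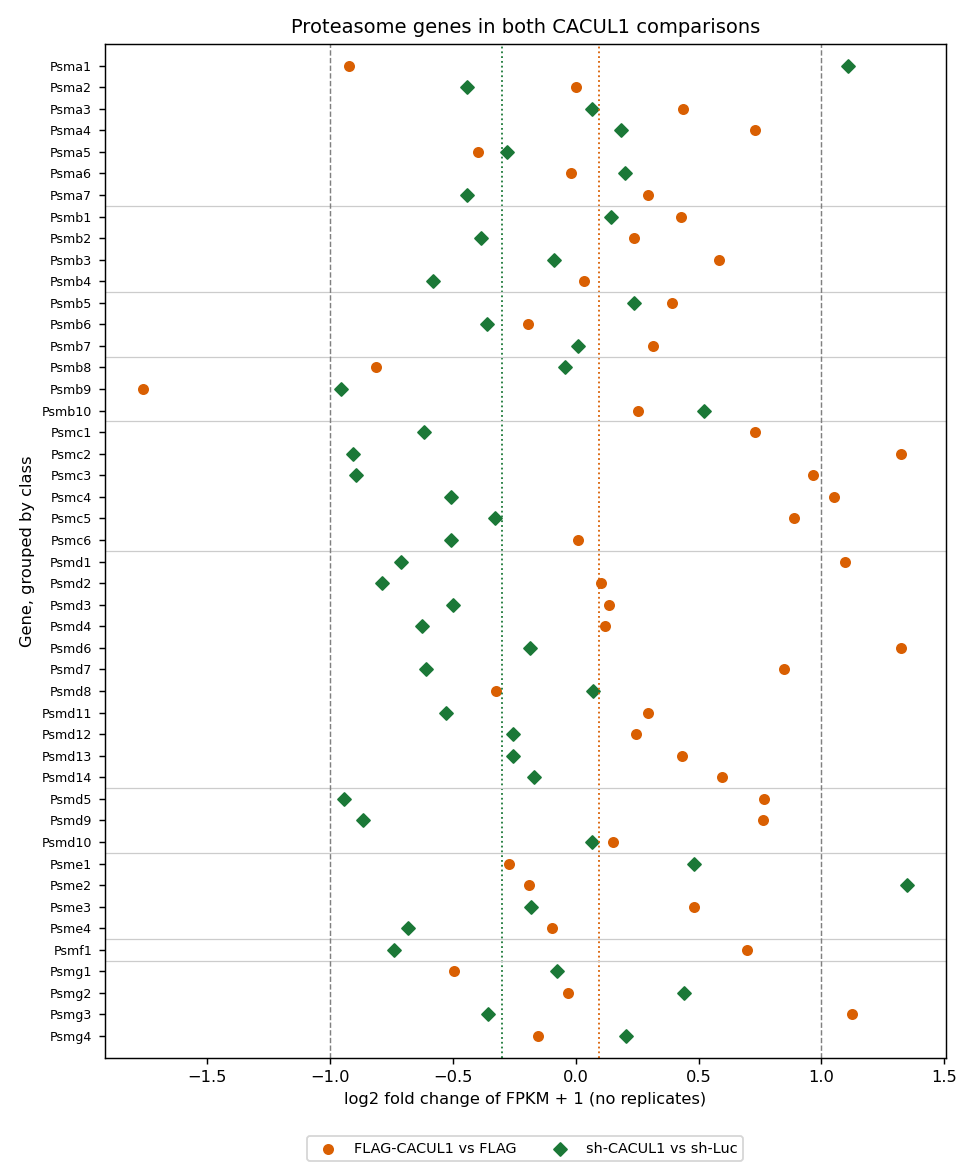
Log2 fold change of FPKM + 1 for the 46 proteasome genes, grouped by class from the alpha ring at the top to the core chaperones at the bottom, in FLAG-CACUL1 against FLAG (circles) and sh-CACUL1 against sh-Luc (diamonds). Dashed lines mark 2-fold and dotted lines the medians of all genes (0.09 and -0.30), and all 6 ATPases (Psmc1 to Psmc6) show the circle right of the diamond.

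In the 20S core, the alpha ring forms the gate and the beta ring the proteolytic chamber. None of its 14 constitutive subunits rose or fell in FLAG-CACUL1, and the median log2 fold changes were 0.27 with FLAG-CACUL1 and -0.04 with sh-CACUL1. After median-of-ratios scaling these medians were 0.11 and 0.41. By ring, the median of the 7 alpha subunits was 0.00 with FLAG-CACUL1 and 0.06 with sh-CACUL1, and that of the 4 structural beta subunits 0.33 and -0.24. Psma1, an alpha subunit, stood apart at 137 FPKM in FLAG and 71.7 in FLAG-CACUL1, against 80.3 in sh-Luc and 174 in the sh-CACUL1 line. It was high in FLAG and sh-CACUL1 and low in the other two, the order that the adipocyte markers also had, and it rose in sh-CACUL1 (log2 fold change 1.11) with -0.92 in FLAG-CACUL1 (-1.08 after median-of-ratios scaling). Psma2 stood at 87.6, 87.7, 143 and 105 FPKM and Psma3 at 64.0, 86.9, 90.3 and 94.5 FPKM, so neither alpha subunit had the order of Psma1. Psmb3, a structural beta subunit, had the widest gap between the controls in the core, at 80.9 FPKM in FLAG and 162 in sh-Luc (-0.99), with 122 in FLAG-CACUL1 and 152 in sh-CACUL1. As with Psmb5, its level may hold reads of near copies, since 66.8% of its 31-base stretches also occur in other annotated genes. Psmb4, another structural beta subunit, was at 147, 150, 197 and 131 FPKM, with -0.58 in sh-CACUL1 (-0.14 after median-of-ratios scaling).

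The 19S regulatory particle was higher in FLAG-CACUL1 than in FLAG for 16 of its 17 subunits and lower in sh-CACUL1 than in sh-Luc for the same 16, while Psmd8 took the other direction in both. In FLAG-CACUL1, 4 of 17 rose (Psmc2, Psmc4, Psmd1 and Psmd6) and none fell, beside 7.51% of all genes that rose, and after median-of-ratios scaling 2 rose (Psmc2 and Psmd6). As deposited, the log2 fold change had a median of 0.59. In the knockdown none passed 2-fold and the median was -0.51, beside -0.30 over all genes. The medians exceeded those of the 20S core by 0.33 with FLAG-CACUL1 and lay below them by -0.47 with sh-CACUL1, differences that share the scaling of each library. The pattern of higher with FLAG-CACUL1 and lower with sh-CACUL1 held for 94.1% of 19S subunits, for 5 of 14 core subunits and for 43.4% of all genes. After median-of-ratios scaling it held for 7 of 17 and 0 of 14, and for 28.6% of all genes. By the same scaling the 19S medians were 0.44 with FLAG-CACUL1 and -0.07 with sh-CACUL1, and the 20S medians 0.11 and 0.41.

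The ATPase ring, the motor of the base, had medians of 0.93 in FLAG-CACUL1 and -0.56 in the knockdown, and all 6 members lay above 0 in the former and below 0 in the latter. Psmc2 stood at 29.4 FPKM in FLAG and 75.0 in FLAG-CACUL1, against 84.2 in sh-Luc and 44.5 in the sh-CACUL1 line. It was low in FLAG and sh-CACUL1, the lines with more adipocyte marker RNA, and its log2 fold changes were 1.32 and -0.91. Psmc4 stood at 31.5, 66.5, 53.0 and 37.0 FPKM, and rose in FLAG-CACUL1 by 1.05 (0.90 after median-of-ratios scaling). Psmc5 stood at 41.0, 76.7, 103 and 82.1 FPKM, with 0.89 and -0.33. Psmc6, by contrast, was level between the FLAG-vector lines, at 56.6 and 56.9 FPKM, and stood at 67.7 FPKM in sh-Luc and 47.3 in sh-CACUL1. After median-of-ratios scaling the double pattern held for 4 of the 6 ATPases.

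Of the 11 non-ATPase subunits, 2 rose in FLAG-CACUL1. Psmd1, the large scaffold of the base, stood at 21.6 FPKM in FLAG and 47.4 in FLAG-CACUL1, against 59.1 in sh-Luc and 35.7 in the sh-CACUL1 line, which gave 1.10 (0.95 after median-of-ratios scaling) and -0.71. Psmd6, a lid subunit, stood at 19.7, 50.9, 60.4 and 53.0 FPKM, which gave 1.32 and -0.19. For both genes FLAG stood below the other lines, and FLAG-CACUL1 did not exceed sh-Luc. Psmd2, the other scaffold of the base, was at 121, 130, 131 and 75.3 FPKM. It was lowest in sh-CACUL1 (log2 fold change -0.79, or -0.34 after median-of-ratios scaling). Its transcript shares 43.5% of its 31-base stretches with other annotated genes. Psmd8, a lid subunit, was at 93.8, 74.8, 47.2 and 49.7 FPKM, the single 19S gene higher in both FLAG-vector lines.

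**Figure D5:**
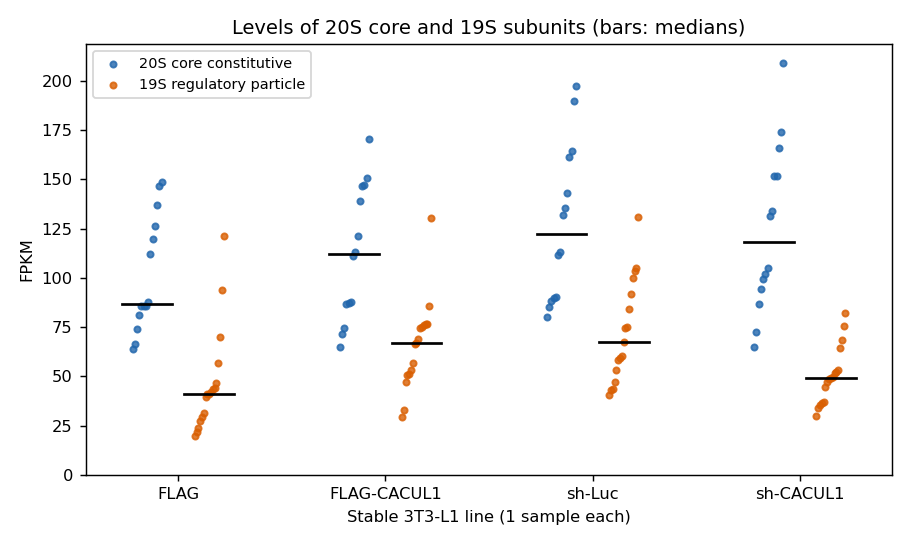
FPKM of the 14 constitutive 20S core subunits and the 17 subunits of the 19S particle in the 4 lines, 1 point per gene, with bars at the medians (axis from 0). The 19S median lies below the 20S median in each line, at 0.475 of it in FLAG and 0.597 in FLAG-CACUL1, against 0.552 in sh-Luc and 0.414 in the sh-CACUL1 line.

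The ratio of the 19S to the 20S median FPKM was 0.475 in FLAG and 0.597 in FLAG-CACUL1, against 0.552 in sh-Luc and 0.414 in the sh-CACUL1 line. It was higher in FLAG-CACUL1 and sh-Luc, the lines with less adipocyte marker RNA, whose part in the ratio was not tested. FLAG serves both as the control of FLAG-CACUL1 and as 1 side of the comparison of controls, where the 19S median was -0.73 and the 20S median -0.41 relative to sh-Luc.

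Of the chaperones that assemble the base, Psmd5 and Psmd9 were higher in FLAG-CACUL1 and sh-Luc than in the other two, as Psmc2 was. Psmd5, which holds the ATPase Psmc2 during assembly, stood at 19.1 FPKM in FLAG and 33.1 in FLAG-CACUL1, against 31.5 in sh-Luc and 15.9 in the sh-CACUL1 line, with log2 fold changes of 0.76 and -0.94. Psmd9 stood at 5.64, 10.3, 11.99 and 6.12 FPKM, with 0.76 and -0.87. Neither passed 2-fold. Psmd10, known as gankyrin, stood at 14.0, 15.7, 10.96 and 11.5 FPKM, with little difference between any of the lines.

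Of the core chaperones, Psmg3 rose in FLAG-CACUL1. It stood at 5.44 FPKM in FLAG and 13.0 in FLAG-CACUL1, against 18.2 in sh-Luc and 14.0 in the sh-CACUL1 line, with log2 fold changes of 1.12 (0.98 after median-of-ratios scaling) and -0.36, and FLAG was well below the others. Psmg1, which with the others helps to build the alpha ring, stood at 24.2, 16.9, 28.7 and 27.1 FPKM, and Psmg2 at 26.8, 26.2, 22.6 and 31.01 FPKM. Neither they nor Psmg4 passed 2-fold with CACUL1. Psmf1, the inhibitor PI31, stood at 7.98, 13.6, 10.7 and 6.001 FPKM, with 0.70 and -0.74.

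The activators open the gate of the core without ATP. Psme1 and Psme2, the interferon-inducible subunits of PA28, differed from Psmb8 and Psmb9 in that the sh lines also held much of their RNA. Psme2 stood at 133 FPKM in FLAG and 117 in FLAG-CACUL1, against 91.1 in sh-Luc and 234 in the sh-CACUL1 line, and rose in sh-CACUL1 (log2 fold change 1.35), with -0.19 in FLAG-CACUL1. Psme1 stood at 78.0, 64.5, 60.4 and 84.7 FPKM, with -0.27 and 0.48. For both genes sh-CACUL1 was the highest line, the line where Psmb9 was lowest and Psmb8, as in sh-Luc, was close to the floor. The Psme2 transcript shares 63.4% of its 31-base stretches with its near copy Psme2b. Psme3, the nuclear PA28 subunit, stood at 22.2, 31.4, 47.1 and 41.4 FPKM, and Psme4, the activator PA200, at 12.02, 11.2, 23.4 and 14.2 FPKM. Neither rose or fell with CACUL1, and both were highest in sh-Luc.

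Across the 46 genes, 5 rose and 1 fell in FLAG-CACUL1 (2 and 2 after median-of-ratios scaling, where Psmc4, Psmd1 and Psmg3 lost their call and Psma1 gained one), whereas in sh-CACUL1 2 rose and none fell (Psma1 and Psme2), while FLAG was at least 2-fold higher than sh-Luc for 2 and lower for 8 (4 and 6 after that scaling). The shares that rose, 5 and 2 of 46, stood beside 7.51% and 4.96% of all genes. None of the 46 fell in sh-CACUL1, where 16.4% of all genes did. After that scaling 2 of 46 rose and none fell in sh-CACUL1, beside 9.09% and 7.77% of all genes.

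Further genes of the ubiquitin and proteasome system were read from a list of 20 associated factors, 19 of them measured. In FLAG-CACUL1, 2 rose and none fell, beside 7.51% and 7.22% of all genes, and in sh-CACUL1 none rose and 2 fell, beside 4.96% and 16.4%. After median-of-ratios scaling 1 rose in FLAG-CACUL1 and 1 fell in sh-CACUL1. Ubqln2, a shuttle that brings ubiquitinated proteins to the proteasome, stood at 14.4 FPKM in FLAG and 48.4 in FLAG-CACUL1, against 36.9 in sh-Luc and 13.5 in the sh-CACUL1 line, with log2 fold changes of 1.68 and -1.39 (-0.96 after median-of-ratios scaling). Vcp, the segregase p97, stood at 62.3, 134, 120 and 110 FPKM and rose in FLAG-CACUL1 (1.09, or 0.94 after median-of-ratios scaling). Both had their lowest or near lowest value in FLAG, as Psmc2 did. Pomp, the maturation factor of the core, stood at 67.7, 124, 127 and 132 FPKM, so FLAG was alone in being low.

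Regulators of the constitutive subunits were all measured (9 of 9), and 1 fell in each comparison and none rose, beside 7.22% of all genes that fell with FLAG-CACUL1 and 16.4% with sh-CACUL1. Nfe2l1, which encodes NRF1, the activator that restores proteasome genes after inhibition, stood at 234 FPKM in FLAG and 195.2 in FLAG-CACUL1, against 154 in sh-Luc and 101 in the sh-CACUL1 line. Its log2 fold changes were -0.26 and -0.60, and its order over the lines was not that of the 19S genes. Maff, a small MAF partner, stood at 32.3, 7.13, 1.81 and 2.85 FPKM and fell in FLAG-CACUL1 (-2.03), with the vector split of Psmb8. Mafg stood at 10.4, 15.3, 22.3 and 21.8 FPKM, with 0.51 in FLAG-CACUL1. Mafk stood at 7.38, 7.75, 8.14 and 2.80 FPKM and fell in sh-CACUL1 (-1.26, or -0.90 after median-of-ratios scaling).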

How the data were processed

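Total RNA of the 4 lines was sequenced as mRNA libraries by a service provider. FPKM values were deposited by the authors, 13110 per sample and keyed by RefSeq transcripts, on mm10 per the submitters' processing notes. All of them were nonzero in every line, so genes without RNA in a line may be missing from the shares over all genes. The aligner, the quantifier and their versions are not given in the sources used here, and FPKM hides depth, so library sizes are estimates from value steps (transcripts of at least 3000 bases) and cover no error. Symbols came from the RefSeq genes of GRCm38.p6 (115 rows had no symbol and 2 had several), and rows were summed per symbol into 13108 genes. Log2 ratios used a pseudocount of 1 and a 2-fold cut-off with Python 3.11.15, numpy 2.4.6 and pandas 2.3.3, and figures used matplotlib 3.10.9. No test was run, since each group has 1 sample, and the scripts were tested on simulated data. The members and lists were chosen with earlier results of these data known. Named genes were the catalytic subunits, the activators, members past 2-fold, the largest and smallest change of each class, the largest rise and fall of each pathway list, and Nfe2l1, Pomp, Tap1 and Irf1, while some genes that this rule names are not reported here. Other genes given with values, such as Tap2, B2m, Vcp and Psmd9, were chosen after their values were seen. Alternatives (8 planned, 1 added after the data were seen) changed the pseudocount, the low-value filter, the scaling, the control, the row choice, the cut-off and the symbol table. Sequences are from RefSeq promoters, of which 39 of 46 members had one.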

Additional observations from a re-analysis of the deposited data

How the results depend on the processing

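Of 94 alternative values of the main results, 82 kept their direction and stayed within the limits set for a change. That total includes 21 under the row choice, which could not differ because no member has several rows. Every constitutive subunit passes the 1 FPKM filter, so their values could not differ under it either. With the other vector's control, 1 value stayed the same, 4 moved, 1 reversed and 2 grew stronger. Scored against the other vector's control, FLAG-CACUL1 changed 0 constitutive subunits, with medians of -0.16 for the constitutive and 1.17 for the immunoproteasome subunits and a difference of 1.41 from the catalytic ones, and Psmb9 (1.17), Psmc2 (-0.16), Psmd1 (-0.31), Psmd6 (-0.24), Psmg3 (-0.46), Maff (1.53) and Jak2 (0.30), all past 2-fold against their own control, turned direction. In all, 32 of 46 named genes turned sign, among them Psmb8 (4.04), Tap1 (1.66), Irf1 (0.68) and Psmc5 (-0.43), and 20 of 46 did for sh-CACUL1. Scored likewise, sh-CACUL1 gave medians of 0.23 and -3.89 and a difference of -4.45. By construction this alternative sets lines with different vectors and drugs side by side. A cut-off of 1.5-fold called 11 constitutive subunits with FLAG-CACUL1 and 8 with sh-CACUL1, and 22 of the 46 genes between the controls (10 at 2-fold). Median-of-ratios scaling shifted the median of all genes in sh-CACUL1 against sh-Luc from -0.30 to near 0, and the constitutive median there became 0.081 and the immunoproteasome median 0.066. A minimum of 1 FPKM in every line removes Psmb8 and Psmb9, so the immunoproteasome values were not computed under it. No paired analysis was possible because each group has 1 sample, and leaving out a replicate was not possible for the same reason. Depth limits Psmb8 in the sh lines (about 13 and 7.4 fragments).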

Other observations

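Of the 3 genes that carry such a symbol without being proteasome parts, Psmc3ip, a factor of meiotic recombination, stood at 4.86 FPKM in FLAG and 8.46 in FLAG-CACUL1, against 14.9 in sh-Luc and 11.2 in the sh-CACUL1 line. Psme2b, a near copy of Psme2, stayed below 1 FPKM, at 0.415, 0.784, 0.139 and 0.464. Psme3ip1, an interactor of Psme3, stood at 20.4, 22.4, 28.8 and 19.3 FPKM. None of the 3 rose or fell in either CACUL1 comparison.

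Proliferation markers were low and uneven: Mki67 stood at 3.40, 1.34, 4.62 and 1.97 FPKM in the same order of lines, and Top2a at 4.201, 3.60, 16.3 and 6.31 FPKM. Of 3 endothelial markers Pecam1 alone had a value, at most 0.301 FPKM.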
